A study of Mus musculus with 14 samples.

Results

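The response of the liver to a high-fat, sugar-rich diet was described in mice whose hepatocytes lack lamin A and lamin C, by comparing 3 liver arrays of diet-fed mice with 3 arrays of chow-fed mice of the same genotype. These 6 arrays were chosen by their genotype and diet labels from a series of 14 arrays, 1 male C57BL/6 mouse each. All mice carried Alb-cre, which makes Cre recombinase under the albumin promoter and so deletes floxed DNA in hepatocytes, while the other cells of the liver keep the gene. Mice of the genotype LMNA flx/flx; Alb-cre+ are called KO here, and mice with 1 floxed copy (LMNA flx/+; Alb-cre+) are called HET. Chow (NC) was fed for 14 weeks. The high-fat regimen (HFD) was the Surwit diet for 14 weeks with drinking water that held 42 g/L of carbohydrate, of which 55% was fructose and 45% sucrose. The KO NC mice were 38.9 weeks old and the KO HFD mice 35.3 weeks old, so the diet and an age difference of -3.6 weeks (HFD minus NC) cannot be told apart. For comparison, 3 HET NC livers (24 to 26.4 weeks) and 3 HET HFD livers (30 to 30.4 weeks) were used, and 2 WT NC livers (24.6 and 27 weeks) entered the fit only.

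Lamins A and C are splice products of Lmna and form a meshwork under the inner nuclear membrane that supports the nucleus and anchors silent chromatin. The hepatocyte is the main cell of the liver, and it makes fat from sugar, burns fatty acids, makes glucose, urea and bile acids, and clears foreign compounds with cytochrome P450 enzymes. Many of the clearance genes are driven by the nuclear receptors CAR (Nr1i3) and PXR (Nr1i2), which bind DNA with RXR. Overfeeding with fat and fructose is a standard way of producing fatty liver, in which macrophages and other immune cells gather around fat-laden hepatocytes.

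Values are log2 intensities, in which a difference of 1 is a 2-fold change. A gene was called when its adjusted p was under 0.05 in limma's moderated test over 22180 genes. Values of single arrays are given in the order H1, H2 and I1 for KO NC and C2, C3 and C4 for KO HFD. Lmna itself read 4.09, 3.78 and 3.67 in the KO NC livers and 3.90, 4.07 and 3.99 in the KO HFD livers. The ranges overlapped, and the difference of 0.14 ± 0.12 (SE, 3 arrays a group) did not pass the test (adjusted p = 0.748), so the remaining Lmna signal of the compared groups was not shown to differ. The KO arrays lay below the WT NC arrays, at 4.50 and 4.44, and below the HET NC arrays, at 4.25 to 4.40. They overlapped with the HET HFD arrays, which read 4.07, 4.07 and 4.30, since H1 and C3 lay at or above the lowest of these. Markers of hepatocytes were high in every KO array, with a mean level of 13 markers between 11.1 and 11.3. On the first principal component of the 6 arrays, which held 37.7% of their variance, KO NC arrays H1 and H2 lay at -28.2 and -28.2, and the KO HFD arrays at 19.9, 13.1 and 25.1. KO NC array I1 stood apart from its group at -1.79, nearer to the HFD arrays, so several counts are also given without it, to be read beside 16.2% (above) and 17.4% (below) of all genes in the fit without it.

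In KO livers 70 of 22180 genes passed the test for HFD against NC, which is 0.316% of the genes tested, 46 of them higher (0.207%) and 24 lower (0.108%) on HFD. In all 70 the ranges of the groups did not overlap, and 39 changed by at least 2-fold, 28 up and 11 down. Centring every array on its median changed this split to 34 higher and 43 lower. Without I1 the test called 119 genes (85 rises and 34 falls), which share 55 with the 70. Leaving out another KO array left 13 (H1), 17 (H2), 27 (C2), 21 (C3) or 28 (C4) genes, and leaving out 1 HET array gave between 45 and 104. A core of 10 genes passed in each of the 6 fits that left out 1 KO array. Guca2b, Ctse, Morc4 and Slc25a30 rose, and Ces2a, Cyp2b10, Slco1a4, Cyp2c29, Serpina1e and Mx1 fell. With only the KO arrays in the fit, limma's test called 45 genes, 23 of them among the 70. In that fit Slco1a4 (adjusted p = 0.0619) and Mx1 (0.0653) did not pass, while the rest of the core did.

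The 5 largest falls were those of Cyp2b10, Cyp2c55, Cyp3a59, Slco1a4 and Ces2a, whose proteins take up or break down drugs, steroids or bile acids. Cyp2b10, the classic CAR-induced cytochrome, read 7.20, 7.70 and 7.39 on NC and 3.52, 3.17 and 5.05 on HFD. Every HFD array lay below every NC array, and the fall was 11.4-fold, a log2 difference of -3.51 ± 0.37 (SE; adjusted p = 0.00179). Ces2a, a carboxylesterase that cleaves ester drugs and lipids, read 10.67, 10.62 and 10.36 on NC against 8.59, 8.47 and 8.31 on HFD, with a spread within groups far smaller than the gap. It fell 4.26-fold and had the smallest adjusted p of the contrast (7.32e-06). Slco1a4, an uptake transporter for organic anions and bile acids, read 9.08, 8.72 and 8.72 on NC against 7.01, 5.74 and 6.86 on HFD. Its fall was 4.94-fold (adjusted p = 0.00401), with C3 lowest.

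Cyp2c29, a cytochrome that acts on drugs and fatty acids, read 12.46, 12.31 and 11.84 on NC and 10.55, 10.73 and 10.43 on HFD. The groups did not overlap, although I1 was the lowest of the NC arrays, and the fall was 3.10-fold (adjusted p = 0.00241). Cyp3a11, a PXR target and a main drug-metabolising cytochrome of mouse liver, read 10.63, 11.00 and 10.57 on NC and 9.57, 9.28 and 8.95 on HFD, a 2.76-fold fall (adjusted p = 0.0239). Cyp3a59, of the same subfamily, read 8.08, 8.06 and 7.19 on NC and 5.59, 5.26 and 5.23 on HFD, a 5.33-fold fall (adjusted p = 0.0239). Cyp3a genes are close relatives, so the values of both may not be separate measurements. Cyp2c55 read 8.80, 9.36 and 8.75 on NC against 6.40, 6.24 and 6.95 on HFD, a 5.43-fold fall (adjusted p = 0.0203). Its second, dimmer probe set differed by -0.52 and did not pass, and that of Cyp2c29 lay near the floor of the scale. Leaving out any 1 of several arrays ended 3 of these calls. Without H1, H2, C2 or C3 the adjusted p of Cyp2c55 was 0.0672 to 0.0941. Without H1, H2, C3 or C4 that of Cyp3a11 was 0.0859 to 0.111, and without H1, H2, C2, C3 or C4 that of Cyp3a59 was 0.0672 to 0.113.

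**Figure D1:**
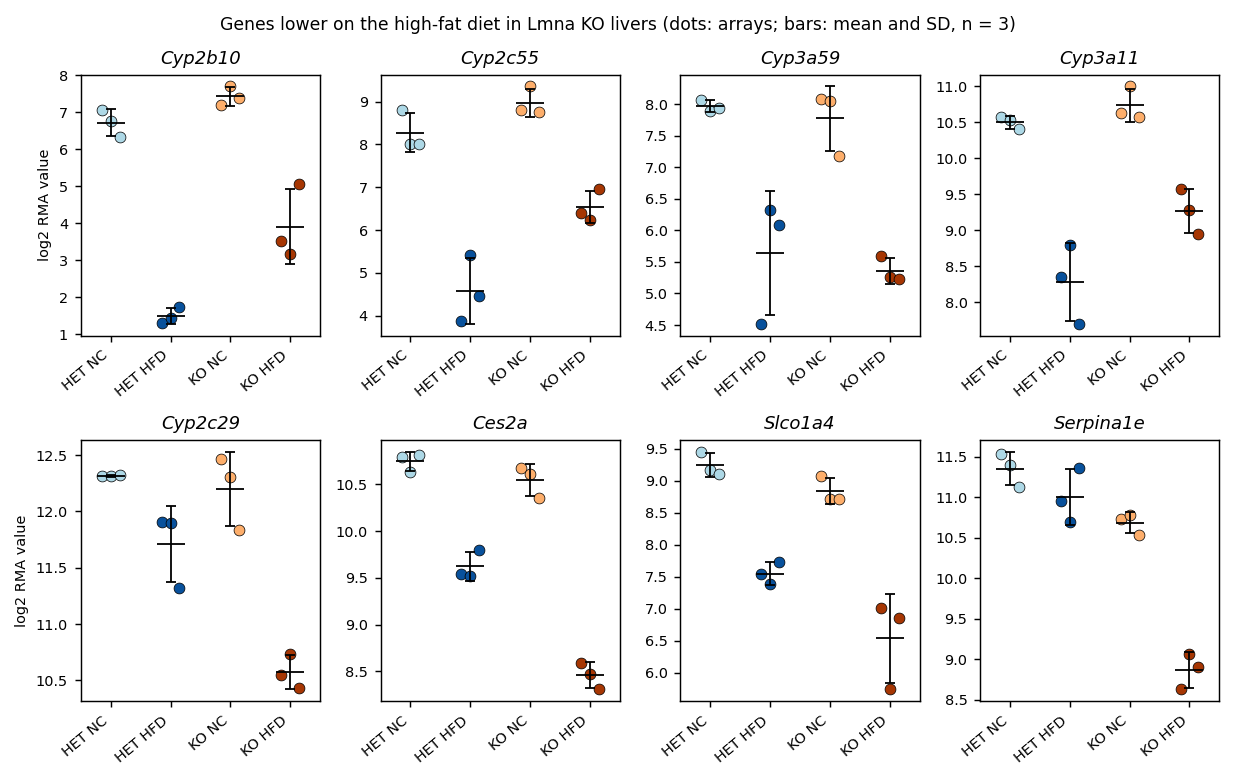
Log2 RMA values (vertical axes) of 8 genes that passed the test as lower on HFD in KO livers, 1 dot per array in HET NC, HET HFD, KO NC and KO HFD, with bars for the mean and SD of 3 arrays. In each panel all KO HFD dots lie below all KO NC dots; Cyp2b10 falls from 7.20 or more to 5.05 or less, and in HET from 6.33 or more to 1.73 or less.

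Among 27 measured CAR and PXR cytochromes and transferases, 5 passed the test, all lower on HFD (Cyp2b10, Cyp2c55, Cyp3a59, Cyp3a11 and Cyp2c29). In 13 of the 27 every HFD array lay below every NC array and in 2 above, where the same held for 9.68% (below) and 9.22% (above) of all genes. The list's median difference was -0.33 against -0.0023 over all genes. Without I1, 20 of 27 lay below and 4 above, beside 17.4% and 16.2% of all genes with so few arrays. The mean level of the list was 8.37 to 8.72 on NC and 7.66 to 7.90 on HFD.

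The half-site AGGTCA, which reads as TGACCT on the other strand, is bound by nuclear receptors of the CAR, PXR and RXR kind. Of the called genes of this list, Cyp2c55 is left out here. Sequences just before the transcription starts of Cyp2b10, Cyp2c29, Cyp3a11, Cyp3a59 and, from outside the list, Ces2a are shown to mark this half-site. They are the 250 bases before the start, 5′ to 3′ on the gene's strand, from RefSeq on GRCm38.p6, with capitals for AGGTCA on either strand. The related motif AGTTCA, or in reverse complement TGAACT, is in capitals too. They lie at chr7:25897408-25897657 (Cyp2b10, plus strand), chr19:39286835-39287084 (Cyp2c29, plus), chr5:145879855-145880104 (Cyp3a11, minus), chr5:146079008-146079257 (Cyp3a59, plus) and chr8:104733753-104734002 (Ces2a, plus).
Cyp2b10: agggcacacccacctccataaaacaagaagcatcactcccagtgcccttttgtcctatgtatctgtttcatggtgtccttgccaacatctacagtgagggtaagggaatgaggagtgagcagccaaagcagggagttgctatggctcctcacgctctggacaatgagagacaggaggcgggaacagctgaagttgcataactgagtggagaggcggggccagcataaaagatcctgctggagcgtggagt
Cyp2c29: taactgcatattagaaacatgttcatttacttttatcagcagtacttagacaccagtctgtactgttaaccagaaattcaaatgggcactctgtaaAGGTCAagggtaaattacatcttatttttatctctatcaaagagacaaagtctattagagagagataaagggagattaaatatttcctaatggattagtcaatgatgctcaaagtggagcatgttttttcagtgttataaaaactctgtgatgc
Cyp3a11: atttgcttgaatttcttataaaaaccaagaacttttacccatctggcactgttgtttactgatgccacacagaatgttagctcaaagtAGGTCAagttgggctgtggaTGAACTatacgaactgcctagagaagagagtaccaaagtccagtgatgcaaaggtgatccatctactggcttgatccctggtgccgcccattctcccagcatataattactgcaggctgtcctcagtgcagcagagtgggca
Cyp3a59: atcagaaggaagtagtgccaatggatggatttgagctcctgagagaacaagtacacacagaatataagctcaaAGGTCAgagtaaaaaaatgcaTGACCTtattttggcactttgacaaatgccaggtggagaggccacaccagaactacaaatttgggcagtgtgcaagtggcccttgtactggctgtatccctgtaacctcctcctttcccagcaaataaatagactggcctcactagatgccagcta
Ces2a: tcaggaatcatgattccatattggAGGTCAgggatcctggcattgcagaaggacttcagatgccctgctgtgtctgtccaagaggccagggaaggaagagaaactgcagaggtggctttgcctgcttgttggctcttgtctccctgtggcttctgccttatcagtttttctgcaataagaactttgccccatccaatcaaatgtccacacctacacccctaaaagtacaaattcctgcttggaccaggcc
AGGTCA or its complement was present 154 bases before the start of Cyp2c29, 162 before that of Cyp3a11, 177 and 156 before that of Cyp3a59 and 226 before that of Ces2a, counted from the motif's first base. Cyp3a11 also held TGAACT at 142 bases. Neither motif was in the window of Cyp2b10. Among genes with 1 window, 6 of the 15 called lower held AGGTCA on either strand, 8 of the 31 called higher (25.8%) and 12.2% of the 14336 tested. AGTTCA was held by 1 of the 15, 2 of the 31 and 10.8% of those tested. Of all 32851 windows of this length 14.0% held AGGTCA and 11.8% AGTTCA. No test was made of these shares, and a match of 6 letters describes the sequence and does not show binding.

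Serpina1e, of the alpha-1-antitrypsin family of protease inhibitors, read 10.73, 10.78 and 10.54 on NC and 8.63, 9.06 and 8.90 on HFD, a 3.52-fold fall (adjusted p = 0.0012). Igfbp2, which binds insulin-like growth factors, read 10.53, 10.66 and 9.95 on NC against 9.27, 9.16 and 9.002 on HFD, a 2.36-fold fall (adjusted p = 0.034). The call of Igfbp2 was lost without F1, H1, H2, A2, C2, C3 or C4 (adjusted p 0.0501 to 0.158). Also among the 12 largest falls, Neb, which encodes a giant muscle protein, fell 2.13-fold (adjusted p = 0.0437) and Rdh16f2, of a retinol dehydrogenase family, 1.89-fold (adjusted p = 0.0404). The call of Neb ended without any 1 array other than G1, N1 and P1 (0.0501 to 0.188), and that of Rdh16f2 without any other than these, I1 and B2 (0.0556 to 0.184).

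The other 12 called falls were each under 2-fold, and all but Asl, Slc27a5 and Klf15, which the lists name, were picked out after their values were seen. Asl, the argininosuccinate lyase of the urea cycle, read 10.66, 10.43 and 10.49 on NC and 9.89, 9.78 and 9.94 on HFD, a 1.58-fold fall (adjusted p = 0.0203). Slc27a5, which activates bile acids and fatty acids for conjugation, read 11.26, 11.11 and 11.00 on NC and 10.46, 10.50 and 10.42 on HFD, also a 1.58-fold fall (adjusted p = 0.0203). Aldh4a1 (proline breakdown) fell 1.66-fold, Aldh1l1 (folate-bound one-carbon units) 1.57-fold, Acadsb (branched-chain acyl-CoA) 1.56-fold and Aldh7a1 (lysine breakdown) 1.43-fold, with adjusted p between 0.034 and 0.0437. Klf15, a fasting-responsive transcription factor that drives amino acid breakdown, read 8.76, 8.76 and 8.96 on NC and 8.20, 8.08 and 8.32 on HFD, a 1.54-fold fall (adjusted p = 0.0374). Each of these 7 calls was lost without H1, H2, C2, C3 or C4, with adjusted p of up to 0.104 for Asl and Slc27a5 and up to 0.188 for the others. Leaving out F1 or F2 also ended the calls of Aldh4a1, Aldh1l1, Acadsb, Aldh7a1 and Klf15, B1 those of Aldh1l1, Acadsb and Aldh7a1, A2 those of Acadsb, Aldh7a1 and Klf15, G1 or N1 those of Acadsb and Klf15, and I1 that of Klf15. The remaining 5 falls were those of Banp (1.85-fold), Xab2 (1.66-fold), Mocos (1.54-fold), which matures the molybdenum cofactor, Trappc4 (1.49-fold) and Ogfr (1.47-fold), with adjusted p between 0.0374 and 0.0474. Each of these 5 calls was lost without any 1 of at least 9 arrays (0.05 to 0.189).

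The 5 largest rises were those of Guca2b, Acss1, Muc13, Cyp21a1 and Ctse. Guca2b (uroguanylin), a gut peptide that activates guanylyl cyclase C, read 2.68, 2.51 and 3.70 on NC and 5.36, 5.12 and 5.36 on HFD. I1 was the highest of the NC arrays yet lay below every HFD array, and the rise was 4.99-fold, or 2.32 ± 0.24 (SE; adjusted p = 0.00179). Its neighbour and relative Guca2a (guanylin) read 2.47, 2.16 and 2.92 on NC and 3.40, 3.97 and 4.31 on HFD, a 2.60-fold rise (adjusted p = 0.0272). Muc13, a membrane mucin, read 2.74, 3.14 and 3.30 on NC and 4.53, 5.11 and 5.92 on HFD, a 4.37-fold rise (adjusted p = 0.0111). Ctse (cathepsin E), an aspartic protease of stomach and immune cells, read 4.51, 4.40 and 4.27 on NC against 6.19, 6.17 and 6.79 on HFD, a 3.98-fold rise (adjusted p = 0.0012).

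Npc1l1, the cholesterol uptake protein of the gut, read 2.17, 1.72 and 2.48 on NC against 3.07, 3.14 and 3.74 on HFD, a 2.29-fold rise (adjusted p = 0.033). Scnn1g, a subunit of the epithelial sodium channel, read 2.57, 2.37 and 2.52 on NC and 3.65, 3.39 and 3.15 on HFD, a 1.88-fold rise (adjusted p = 0.0203). Guca2a, Npc1l1 and Scnn1g were chosen after their values were seen. Their signals were dim, and an alternative filter on dim genes left them out. The call of Muc13 was lost without H1 (adjusted p = 0.061), that of Guca2a without H1, H2, C3 or C4 (0.0891 to 0.118), that of Scnn1g without H1, H2, C2 or C3 (0.0672 to 0.0945) and that of Npc1l1 without F2, H1, H2, C2, C3 or C4 (0.0577 to 0.13).

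Guca2a and Guca2b lie side by side, with starts 21213 bases apart on opposite strands, and their upstream windows are shown because both rose. They lie at chr4:119637482-119637731 (Guca2a, plus strand) and chr4:119658946-119659195 (Guca2b, minus), and capitals mark GTTAAT, or in reverse complement ATTAAC, a core of the site of the epithelial factor HNF1.
Guca2a: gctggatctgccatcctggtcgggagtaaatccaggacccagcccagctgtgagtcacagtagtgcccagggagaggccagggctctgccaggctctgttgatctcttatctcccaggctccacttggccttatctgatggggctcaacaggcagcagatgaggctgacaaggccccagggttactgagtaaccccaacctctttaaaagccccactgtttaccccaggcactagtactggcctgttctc
Guca2b: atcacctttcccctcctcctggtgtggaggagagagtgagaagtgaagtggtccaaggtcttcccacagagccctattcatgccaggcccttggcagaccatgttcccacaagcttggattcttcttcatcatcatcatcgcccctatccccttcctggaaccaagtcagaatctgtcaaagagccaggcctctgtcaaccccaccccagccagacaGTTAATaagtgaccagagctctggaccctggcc
GTTAAT was present 33 bases before the start of Guca2b and was not found in the window of Guca2a. Of all windows of this length 6.43% held it, and among genes with 1 window 3 of the 31 called higher, 1 of the 15 called lower and 6.13% of those tested.

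Acss1, the mitochondrial acetyl-CoA synthetase, read 3.13, 3.80 and 3.72 on NC and 5.16, 5.65 and 6.43 on HFD, a 4.59-fold rise (adjusted p = 0.0111). Its second probe set, which averaged 1.23, differed by 0.30 and did not pass. Cyp21a1, the steroid 21-hydroxylase of the adrenal gland, read 2.70, 2.47 and 3.94 on NC and 4.49, 5.09 and 5.63 on HFD, a 4.09-fold rise (adjusted p = 0.0283). Psat1, an enzyme of serine synthesis under the stress factor ATF4, read 2.56, 2.10 and 3.09 on NC and 4.46, 3.58 and 4.59 on HFD, a 3.09-fold rise (adjusted p = 0.0222). In none of these 3 genes did the groups overlap, and I1 was the highest NC array in both Cyp21a1 and Psat1.

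Tmem238l rose 3.57-fold, Fermt1 (kindlin-1, an integrin activator of epithelia) 3.53-fold, Serpinb9e (a serpin of the granzyme inhibitor family) 3.20-fold and Parm1 2.97-fold, with adjusted p between 0.0203 and 0.0474. Morc4 rose 2.95-fold (adjusted p = 0.00401) and Lrrc8b, a subunit of the volume-regulated anion channel, 2.74-fold (adjusted p = 0.0276). Tmem238l and Psat1 were dim, and the filter on dim genes left both out. Calls were lost without H1 for Acss1 (0.061), H1 or H2 for Parm1 (0.0901 to 0.107), H1, H2 or C2 for Tmem238l (0.0672 to 0.101), H1, H2, C3 or C4 for Cyp21a1 (0.0891 to 0.139), and H1, H2, C2 or C4 for Psat1 (0.0862 to 0.101) and Serpinb9e (0.096 to 0.113). They were lost without H1, H2, C2, C3 or C4 for Lrrc8b (0.0672 to 0.127) and without any of 12 arrays, all but P1 and I1, for Fermt1 (0.0576 to 0.194).

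**Figure D2:**
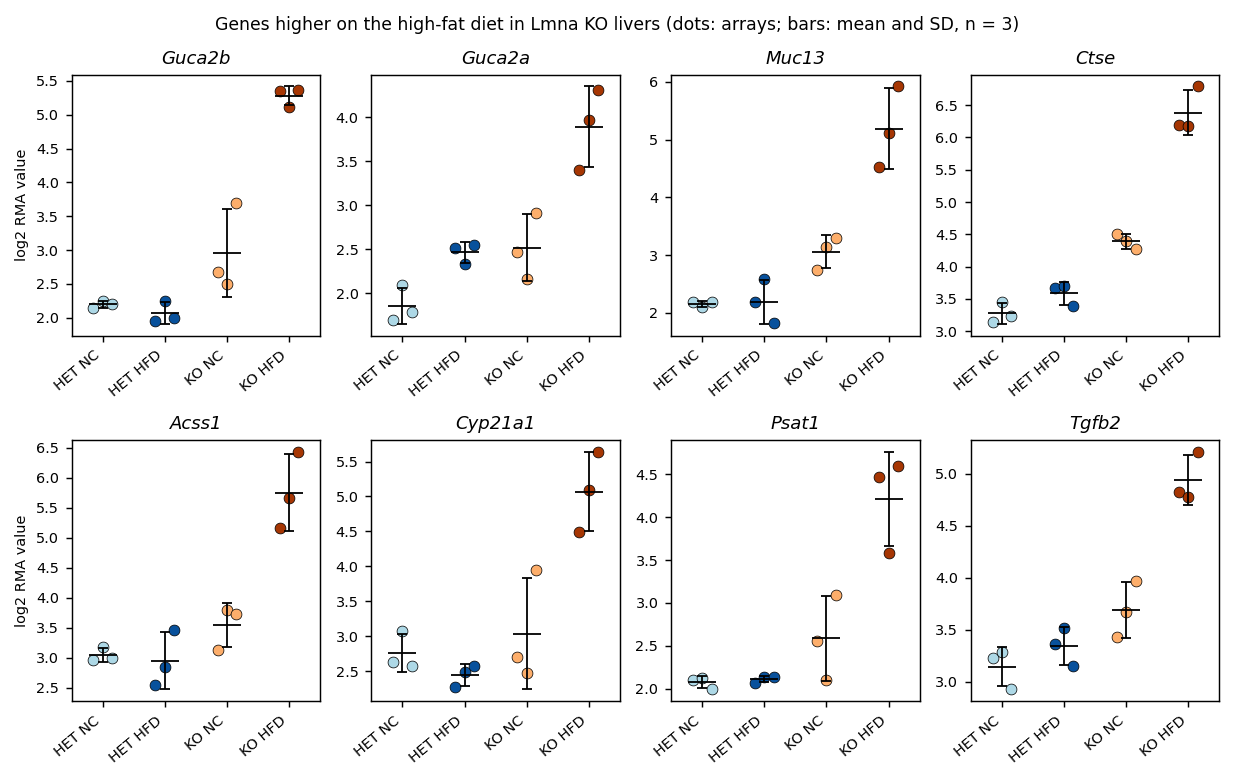
Log2 RMA values (vertical axes) of 8 genes that passed the test as higher on HFD in KO livers, 1 dot per array in HET NC, HET HFD, KO NC and KO HFD, with bars for the mean and SD of 3 arrays. In each panel all KO HFD dots lie above all KO NC dots, as for Ctse at 6.17 or more against 4.51 or less, while in HET none of these 8 differences passed the test.

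Single genes known from white blood cells passed as higher, 6 of which are given here and were picked out after their values were seen, while no member of the macrophage, lymphocyte and neutrophil lists passed. Aif1 (a macrophage actin-binding protein) read 5.18, 5.44 and 5.29 on NC and 6.11, 6.12 and 5.90 on HFD, a 1.67-fold rise (adjusted p = 0.0226). Adgre4, an adhesion receptor of myeloid cells, rose 2.35-fold, Cd300ld, a myeloid activating receptor, 2.32-fold, Igsf6 2.25-fold, Fcgr4, an activating IgG receptor, 1.86-fold and Srgn, the core of granule proteoglycans, 1.62-fold, with adjusted p between 0.0272 and 0.0357. Each of these 6 calls was lost without H1, C2 or C3, with adjusted p of up to 0.159. Leaving out H2 also ended all but that of Cd300ld, F2, B1 or C4 those of Adgre4, Igsf6 and Fcgr4, A2 those of Igsf6 and Fcgr4, and I1 that of Cd300ld. In whole liver, more cells of a type and more RNA per cell cannot be told apart.

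Of 15 resident Kupffer cell markers none passed the test, but 9 had every HFD array above every NC array and 0 below, beside 9.22% and 9.68% of all genes. The list's median difference was 0.55 (from -0.45 to 1.01), and its mean level was 7.17 to 7.52 on NC and 7.75 to 7.85 on HFD. In HET the mean level was 7.22 to 7.88 on NC and 7.55 to 7.98 on HFD, so the KO HFD arrays lay within the HET range. With diet in HET, 4 markers lay above and 0 below, with a median of 0.27. Without I1, 9 of the KO markers lay above and 1 below. C1qb, a complement component made by macrophages, read 8.23, 8.47 and 8.61 on NC and 9.61, 9.39 and 9.35 on HFD, a difference of 1.01 ± 0.21 (adjusted p = 0.0735). It passed without F1 or P1 (0.024 to 0.0405). Folr2, a receptor of resident macrophages, differed by 0.88 ± 0.19 (adjusted p = 0.0746). Cd5l and Vsig4, made by Kupffer cells, differed by 0.69 and 0.55, with all HFD arrays above NC in both (adjusted p = 0.266 and 0.279).

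Of 19 markers of recruited and lipid-associated macrophages none passed. In every HFD array 4 of them lay above and 0 below, beside 9.22% and 9.68% of all genes (median difference 0.46). Of 19 T, B and NK cell markers 6 lay above and 0 below (median 0.44), and none passed. Their mean level was 3.20 to 3.35 in KO NC and 3.71 to 3.97 in KO HFD. In HET it was 2.96 to 3.87 on NC, a wide spread within 1 group, and 3.03 to 3.31 on HFD. Cd4, of helper T cells, read 3.42, 3.44 and 3.45 on NC and 4.89, 4.59 and 5.10 on HFD, a difference of 1.43 ± 0.28 (adjusted p = 0.06). It passed without P1, B1 or B2 (0.00946 to 0.0468). Cd3e, a chain of the T cell receptor complex, differed by 0.78 and Ncr1, of NK cells, by 1.55, with every HFD array above NC (adjusted p = 0.466 and 0.135). Of 18 endothelial markers 5 lay above and 0 below, of 13 neutrophil markers 2 and 1, of 11 cholangiocyte markers 1 and 0, and of 17 stellate cell markers 1 and 1. Without I1 the counts above were 9 for T, B and NK cells, 6 for neutrophils, 4 for cholangiocytes and 3 for stellate cells, beside 16.2% of all genes. The stellate marker above was Lrat, which stores vitamin A; it read 6.79, 7.30 and 6.31 on NC and 8.15, 8.60 and 7.81 on HFD and rose 2.61-fold (adjusted p = 0.0276), a call lost without H1, C2 or C3 (0.0862 to 0.113). Hepatocyte markers went the other way, with 6 of 13 below in every HFD array, 0 above and a median of -0.10. Their mean level was 11.23 to 11.29 on NC and 11.08 to 11.12 on HFD. The part of the cell makeup in the gene differences given here was not tested.

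**Figure D3:**
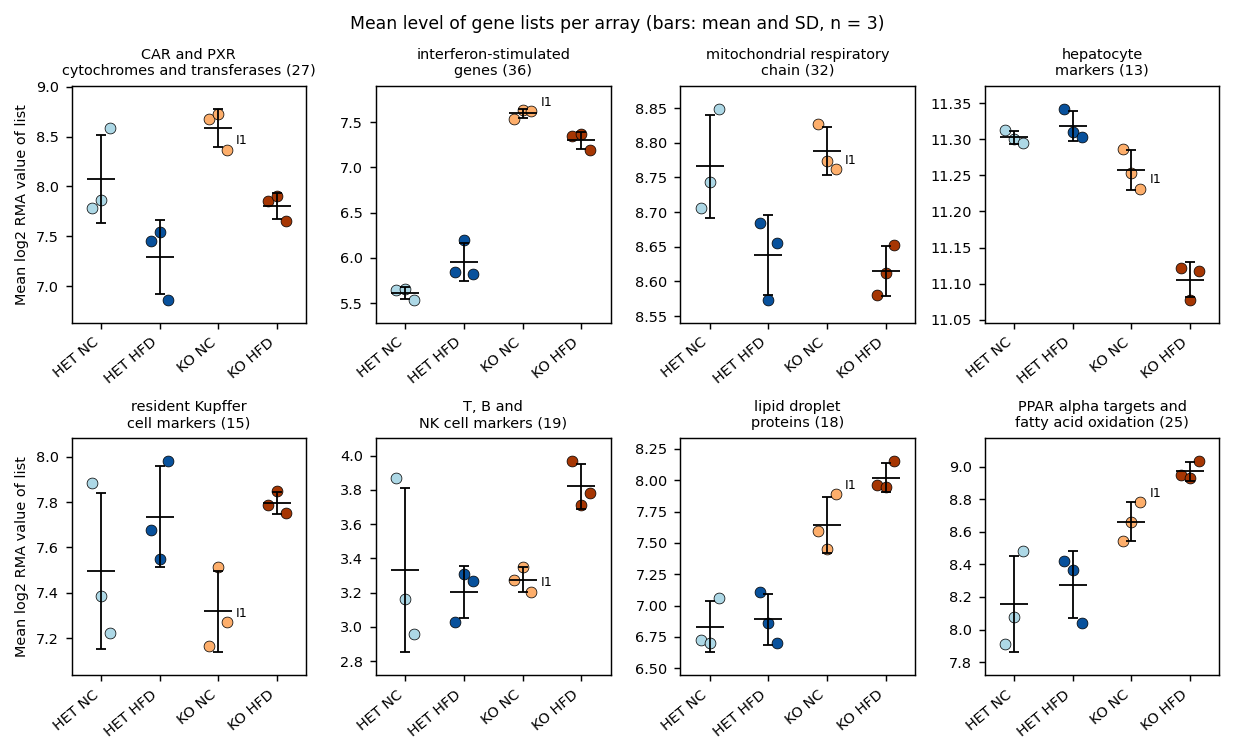
Mean log2 RMA value (vertical axes) of the measured members of 8 gene lists (number in brackets) in each array of HET NC, HET HFD, KO NC and KO HFD, with bars for the mean and SD of 3 arrays; KO NC array I1 is labelled. In KO livers all 8 panels have HFD and NC ranges that do not overlap, such as the Kupffer markers at 7.75 to 7.85 on HFD against 7.17 to 7.52 on NC. The 8 lists were picked from 39, and ranges overlapped in lists not shown, such as cell cycle genes (4.76 to 4.91 on HFD, 4.43 to 4.98 on NC).

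Of 18 lipid droplet proteins none passed, 7 lay above in every HFD array and 0 below, and the median difference was 0.24. Over all genes 9.22% lay above and 9.68% below. Without I1, 12 of the droplet proteins lay above and 0 below, beside 16.2% and 17.4% of all genes. Hsd17b13, a droplet-bound dehydrogenase, read 12.02, 12.15 and 12.24 on NC and 12.44, 12.50 and 12.52 on HFD (difference 0.35, adjusted p = 0.3). Cidea, a droplet fusion protein, read 7.79, 7.03 and 8.93 on NC and 9.02, 8.63 and 9.63 on HFD. Its ranges overlapped because of I1, and the difference of 1.18 ± 0.40 (adjusted p = 0.279) passed without I1 (0.0488). Cidec, of the same family, had the same order of arrays, at 7.48, 6.70 and 8.99 on NC and 9.06, 8.55 and 9.62 on HFD (difference 1.35, adjusted p = 0.404).

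Of 19 genes of fatty acid uptake and re-esterification 8 lay above and 1 below, beside 9.22% and 9.68% of all genes. The 1 that passed was Slc27a5, which fell as given above. Mogat1, which re-esterifies monoacylglycerol, read 3.82, 3.74 and 5.14 on NC and 5.25, 5.30 and 5.71 on HFD, a difference of 1.19 ± 0.33 (adjusted p = 0.177, and 0.0134 without I1). Cd36, a fatty acid transporter, differed by 0.54 ± 0.15 (adjusted p = 0.17, and 0.0402 without I1). Of 25 fatty acid oxidation genes and PPAR alpha targets 10 lay above and 2 below, with a median of 0.23 (0.15 without C4). Without I1, 16 lay above and 4 below, beside 16.2% and 17.4% of all genes. Crat, which passes acetyl groups to carnitine in mitochondria, was the 1 that passed: it read 8.10, 8.06 and 8.40 on NC and 9.08, 8.92 and 8.94 on HFD and rose 1.73-fold (adjusted p = 0.0374), a call lost without F1, H1, H2, A2, B1, C2, C3 or C4 (0.0523 to 0.168). Its second, dimmer probe set differed by 0.38 and did not pass. Acot2, a mitochondrial acyl-CoA thioesterase, read 8.98, 9.60 and 9.40 on NC and 10.76, 11.26 and 10.56 on HFD (difference 1.53 ± 0.33, adjusted p = 0.0804, and 0.0133 without B2). Fgf21, the fasting and stress hepatokine, differed by 1.53 with I1 at 5.87 inside the HFD range (adjusted p = 0.206, and 0.0319 without I1).

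Of 25 genes of fatty acid and triglyceride synthesis 9 lay above and 2 below, beside 9.22% and 9.68% of all genes, and none passed. The median of 0.25 became 0.07 without H2 and 0.05 without C2. Fads2, the delta-6 desaturase, read 11.48, 11.15 and 11.39 on NC and 12.07, 11.96 and 11.78 on HFD, a difference of 0.59 ± 0.11 just outside the threshold (adjusted p = 0.0521). Pnpla3, a lipase of lipid droplets, differed by 1.28 ± 0.47 with HFD arrays at 4.94, 3.64 and 2.82 and NC arrays at 2.79 or less (adjusted p = 0.325). Acss2, the cytosolic acetyl-CoA synthetase, differed by -0.84, with every HFD array below (adjusted p = 0.301, and 0.0488 without B2), where its mitochondrial counterpart Acss1 rose. Of 18 genes of sugar uptake, fructolysis and glycolysis 6 lay above and 0 below (9 and 1 without I1; median 0.15, and 0.10 without H1), with Pklr, the liver pyruvate kinase, at 0.56 (adjusted p = 0.57). Of 20 sterol genes 2 lay above and 1 below, with a median of 0.08 that centring on array medians turned to -0.0098.

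Of 32 respiratory chain subunits none passed, but 18 lay below in every HFD array and 2 above, with a median of -0.20 and a lowest difference of -0.45. Over all genes 9.68% lay below and 9.22% above. Sdhb, of complex II, read 9.46, 9.45 and 9.33 on NC and 8.96, 9.05 and 9.04 on HFD, a difference of -0.40 ± 0.09 (adjusted p = 0.106). The mean level of the list was 8.76 to 8.83 on NC and 8.58 to 8.65 on HFD. Of 16 periportal and urea cycle genes 8 lay below and 1 above (median -0.27), with Asl called. Cps1, the first step of the urea cycle, read 12.75, 12.71 and 12.63 on NC and 12.41, 12.28 and 12.29 on HFD (difference -0.37, adjusted p = 0.138). Etnppl and Hal, of phosphoethanolamine and histidine breakdown, differed by -1.13 and -0.98, with every HFD array below (adjusted p = 0.107 and 0.147). Of 20 pericentral genes 6 lay below and 1 above, none called, with a median of -0.28. Without I1 the counts were 15 and 1, beside 17.4% and 16.2% of all genes. Lhpp differed by -0.82 and Oat, ornithine aminotransferase, by -0.76 (adjusted p = 0.141 and 0.172).

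Of 19 genes of gluconeogenesis and insulin signalling 8 lay below and 1 above, beside 9.68% and 9.22% of all genes, with Igfbp2 called. The median was -0.18, and it was -0.32 without H1 and -0.12 without H2. Pck1, the rate-limiting enzyme of gluconeogenesis, read 12.25, 12.33 and 12.36 on NC and 11.72, 11.77 and 12.16 on HFD (difference -0.43, adjusted p = 0.284), and Insr, the insulin receptor, differed by -0.34 (adjusted p = 0.252). Of 24 genes of bile acid synthesis and transport 8 lay below and 3 above, with Slco1a4 and Slc27a5 called. The median was -0.32, and it was -0.18 without H1 and -0.17 without C4. Nr0b2 (SHP), the repressor induced by the bile acid receptor FXR, read 8.34, 8.43 and 7.87 on NC and 7.24, 7.14 and 6.73 on HFD, a difference of -1.18 ± 0.26 that did not pass (adjusted p = 0.0906). Abcc4, a bile acid exporter, differed by 0.70 with every HFD array above (adjusted p = 0.213). Of 18 hepatocyte transcription factors 4 lay below and 3 above. Hnf4a, a master regulator of hepatocytes, read 10.92, 10.99 and 11.08 on NC and 10.53, 10.63 and 10.75 on HFD (difference -0.36, adjusted p = 0.156), and Onecut1 (HNF6) read 6.22, 6.04 and 5.87 on NC and 8.19, 8.36 and 7.43 on HFD (1.95 ± 0.40, adjusted p = 0.0696). Onecut1 passed without P1 or B2 (0.0302 to 0.0333).

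Interferon-stimulated genes are those that cells switch on against viruses. Of 36 measured, 17 lay below in every HFD array and 2 above, beside 9.68% and 9.22% of all genes, with a median of -0.31, and 1 passed. This was Mx1, of a family of antiviral GTPases, which read 3.06, 3.07 and 3.52 on NC and 2.17, 2.07 and 1.73 on HFD. It fell 2.34-fold (adjusted p = 0.0131). Its signal was dim, with all HFD values below the array medians of 2.21 to 2.30. Isg15, a ubiquitin-like modifier, read 8.24, 8.38 and 8.22 on NC and 7.76, 7.53 and 7.43 on HFD (difference -0.71 ± 0.17, adjusted p = 0.106), and Irf7, the amplifying transcription factor, differed by -0.64 (adjusted p = 0.198). The mean level of the list was 7.54 to 7.64 in KO NC and 7.20 to 7.37 in KO HFD, against 5.54 to 5.66 in HET NC and 5.82 to 6.20 in HET HFD, so the KO livers stood above both HET groups on either diet. This difference was not tested. The KO mice (35.3 and 38.9 weeks) were also older than the HET mice (24 to 30.4 weeks), so genotype and age cannot be told apart in it. Without I1 18 members lay below and 4 above, beside 17.4% and 16.2% of all genes. Of 27 chemokine and NF-kB genes 6 lay above and 0 below (11 and 1 without I1; median 0.31, and 0.17 without H1), none called, with Cxcl16 at 0.68 and Ccl6 at 0.62 (adjusted p = 0.3 and 0.274).

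Tgfb2, a profibrotic growth factor, read 3.43, 3.67 and 3.96 on NC and 4.83, 4.78 and 5.21 on HFD and rose 2.38-fold (adjusted p = 0.0117), a call lost without H1 or H2 (0.0517 to 0.061). It was the 1 called of 33 collagen and matrix genes, of which 7 lay above and 1 below (14 and 2 without I1; median 0.24, and 0.12 without H1). Its relative Tgfb1 read 6.19, 6.50 and 6.57 on NC and 7.16, 7.27 and 7.23 on HFD (0.80 ± 0.18, adjusted p = 0.0951, and 0.0302 without P1). Bmp4, of the same ligand superfamily and chosen after its values were seen, rose 2.19-fold (adjusted p = 0.0203), lost without H1, H2, C3 or C4 (0.0604 to 0.0901). Psat1 was the 1 called of 27 ER stress and ATF4 genes, of which 6 lay above and 1 below (12 and 1 without I1, median 0.18). Beside these and the matrix counts, 9.22% of all genes lay above and 9.68% below, and 16.2% and 17.4% without I1. Slc25a30, a mitochondrial carrier chosen after its values were seen, read 6.74, 6.96 and 7.13 on NC and 8.19, 8.39 and 7.89 on HFD and rose 2.32-fold (adjusted p = 0.00275).

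Of 13 oncofetal liver genes 4 lay above and 0 below (7 and 0 without I1), and none passed. The median was 0.59, and it was 0.28 without C4. Over all genes 9.22% lay above and 9.68% below, and 16.2% and 17.4% without I1. Ly6d read 7.20, 7.80 and 8.73 on NC and 9.35, 9.15 and 9.47 on HFD, a difference of 1.41 ± 0.28 (adjusted p = 0.0637), and Apela, a peptide hormone of the embryo, 4.39, 5.43 and 6.05 against 6.63, 6.82 and 7.38 (1.65 ± 0.35, adjusted p = 0.0735). In both I1 was the highest NC array, and both passed without it (0.0018 and 0.0164). Lcn2, an acute phase protein, read 6.43, 6.56 and 8.61 on NC and 8.82, 8.90 and 9.44 on HFD (1.85 ± 0.48, adjusted p = 0.147, and 0.00557 without I1), in a list of 24 with 4 above and 3 below (10 and 3 without I1). Tnfrsf10b, a death receptor and p53 target, passed without I1 alone (0.0083), with a difference of 1.05 over all arrays (adjusted p = 0.239).

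Of the 15 genes of the growth hormone axis 2 lay above and 2 below, with Serpina1e called. Bcl6, a transcriptional repressor, read 7.97, 8.74 and 7.33 on NC against 6.06, 5.33 and 5.83 on HFD (difference -2.28 ± 0.65, adjusted p = 0.19). Of 26 male-biased liver genes 2 lay above and 5 below, and of 27 female-biased ones 4 and 6. Counts above and below were 4 and 4 of 19 clock genes, 4 and 2 of 23 NRF2 targets, 0 and 2 of 14 metal-handling genes, 2 and 2 of 18 hepatokines, 4 and 3 of 21 YAP and SRF targets, 2 and 0 of 33 cell cycle genes, 2 and 0 of 19 p53 targets and 0 and 2 of 17 lamina genes. With 1 NC array fewer, more genes of any kind lie apart. Without I1 16.2% of all genes lay above and 17.4% below, in place of 9.22% and 9.68%. Beside these shares the counts were 11 above and 1 below for cell cycle genes, 7 and 0 for p53 targets and 8 and 4 for NRF2 targets. They were 2 and 10 for male-biased and 9 and 7 for female-biased genes. Hepatokines had 4 and 3, lamina genes 3 and 3 and metal-handling genes 1 and 3. Clock and YAP or SRF genes had 6 above in each list. The median of the cell cycle list was 0.07, and it was 0.31 without I1 and -0.0074 without H1. Markers of fat, pancreas and red cells, as a check for other tissue, gave 1 and 1 of 8, with mean levels of 1.88 to 2.16 on NC and 1.97 to 2.25 on HFD.

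**Figure D4:**
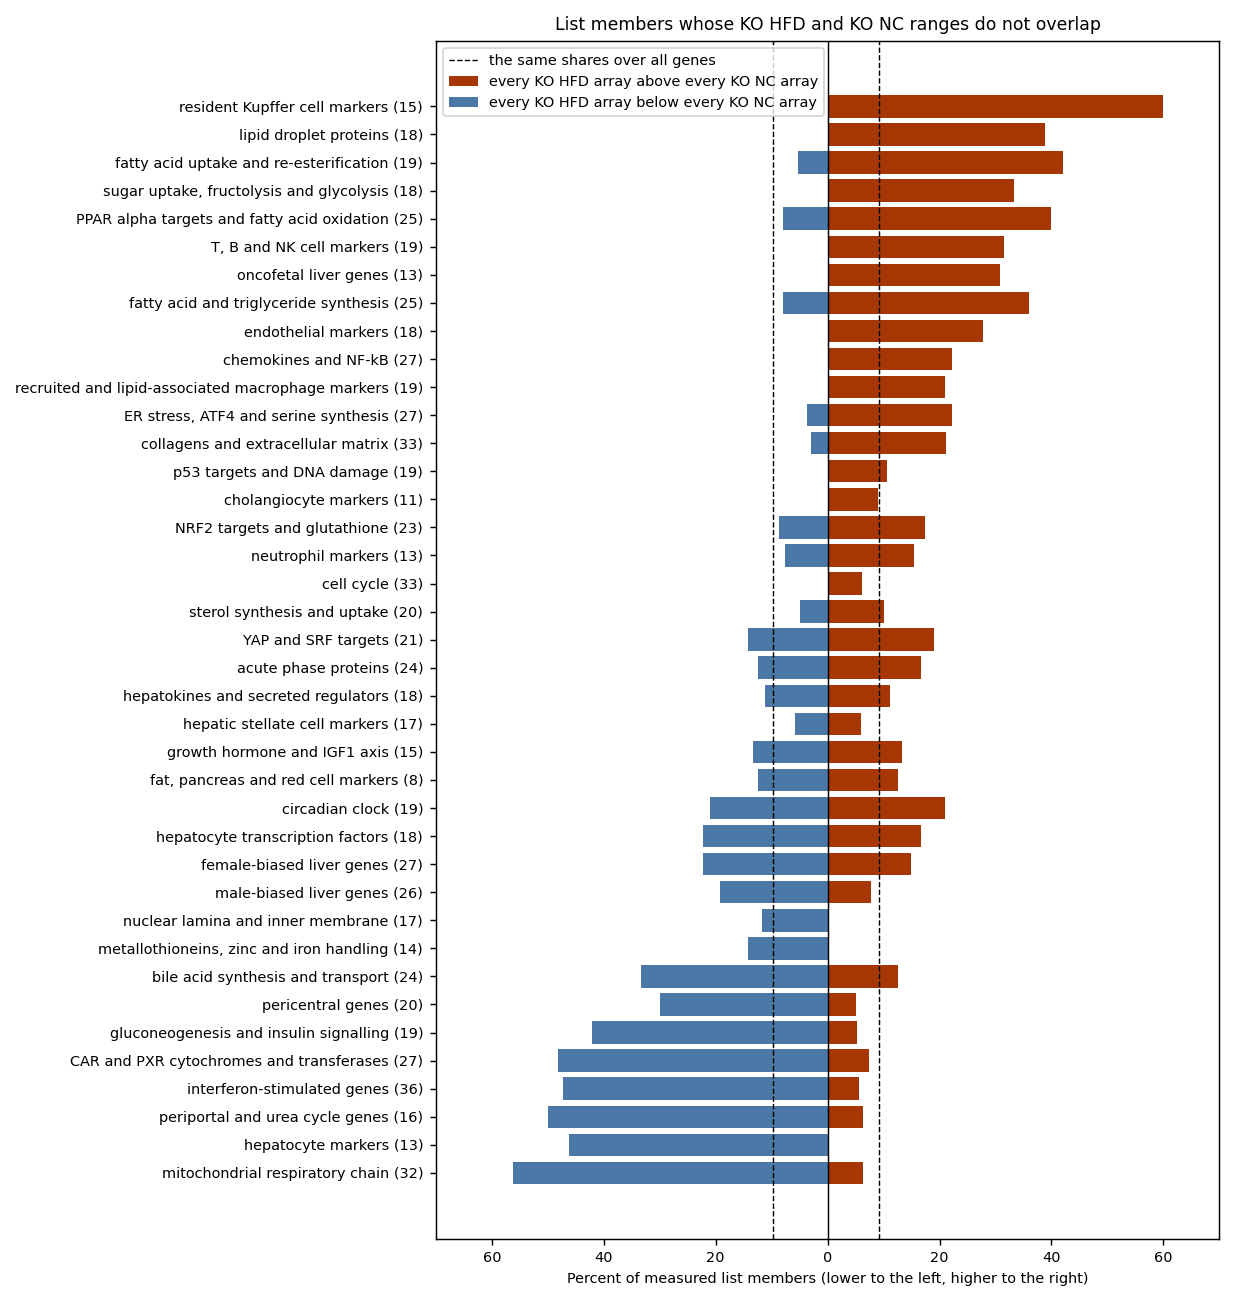
Share of each list's measured members (number in brackets) for which every KO HFD array lay above (right) or below (left) every KO NC array, with dashed lines at 9.22% and 9.68% for all genes. Kupffer cell markers reach 9 of 15 above, and respiratory chain subunits 18 of 32 below.

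The same diet in HET livers gave 44 called genes (0.198%), 11 higher and 33 lower. That number was 17 without F1, 13 without F2, 164 without P1, 22 without A2, 19 without B1, 66 without B2 and 22 to 24 without 1 of the KO arrays other than I1. Of the 70 genes called in KO, 8 were also called in HET, which is 11.4% of the KO and 18.2% of the HET calls. In 6 of them both genotypes fell, namely Cyp2b10, Cyp2c55, Cyp3a59, Cyp3a11, Slco1a4 and Ces2a. Cyp2b10 fell in HET from 7.06, 6.76 and 6.33 on NC to 1.32, 1.45 and 1.73 on HFD, a difference of -5.22, and the difference between the genotypes' changes (1.70 ± 0.53) did not pass (adjusted p = 0.323). Ces2a changed by -2.09 in KO and -1.13 in HET, again without passing as different (-0.96, adjusted p = 0.0699). Over the 70 genes the median size of the change was 1.15 in KO and 0.24 in HET, where the first value is large by the choice of the genes. The change in HET had the same sign in 23 of the 24 called falls and in 25 of the 46 called rises. Over all genes the diet changes of KO and HET were only weakly correlated (r = 0.098).

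Tested directly, the change with diet differed between KO and HET in 8 genes (0.0361%), 7 of them with the higher change in KO. Age ran in opposite directions in these contrasts. In KO the HFD mice were younger than the NC mice (35.3 against 38.9 weeks). In HET they were older (30 to 30.4 against 24 to 26.4 weeks). Diet and age therefore cannot be told apart in these differences. Slc16a5, a monocarboxylate transporter, read 7.58, 7.49 and 7.44 in KO NC and 8.44, 8.73 and 8.95 in KO HFD, while HET went from 6.75, 6.73 and 6.23 on NC to 4.89, 5.41 and 5.21 on HFD. It rose 2.31-fold in KO and differed by -1.40 in HET, which passed in both, and the difference of the changes was 2.61 ± 0.28 (adjusted p = 0.00908). Its second probe set, also in use at a mean of 6.16, differed by 0.69 in KO and did not pass (adjusted p = 0.161). Kmt5a, a histone H4 lysine methyltransferase, read 9.63, 9.56 and 9.60 in KO NC and 10.18, 10.27 and 10.21 in KO HFD, against 10.02, 10.13 and 9.81 in HET NC and 9.28, 9.41 and 9.39 in HET HFD. Both changes passed, in opposite directions, and differed by 1.25 (adjusted p = 0.0171). In KO the call of Slc16a5 was lost without H1, H2, C3 or C4 (0.0878 to 0.107) and that of Kmt5a without any KO array (0.0518 to 0.13). Guca2b, which rose in KO, stayed between 1.96 and 2.25 in all 6 HET arrays (difference of the changes 2.45, adjusted p = 0.0375).

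Nqo1 and Gstm3, NRF2 targets that detoxify quinones and electrophiles, fell in HET and not in KO. Nqo1 read 6.72, 6.59 and 6.31 in HET NC and 5.27, 5.20 and 5.15 in HET HFD, against 7.47, 7.86 and 8.26 in KO NC and 8.54, 8.27 and 8.94 in KO HFD. The changes were -1.33 in HET and 0.72 in KO, and differed by 2.05 (adjusted p = 0.045). Gstm3 changed by -1.81 in HET and 0.01 in KO, and the changes differed by 1.82 (adjusted p = 0.045). Tnfaip8l1 rose in HET by 1.51 and differed by 0.11 in KO (difference of the changes -1.41, adjusted p = 0.0275). Pqlc3 and Tmem79 differed by 0.67 and 0.54 in KO and -0.72 and -0.64 in HET (difference of the changes 1.39 and 1.18, adjusted p = 0.0272 and 0.045). In KO alone Pqlc3 passed without P1 (0.0302) and Tmem79 without B2 (0.0344). The number of genes that passed limma's test of the difference was 35 without I1, 43 without P1, 12 without C3, 4 without A2 or C4, 1 without F1, H1 or C2 and 0 without F2 or H2. At an unadjusted p under 0.05 there were 2187 genes with all arrays, 1891 without F2 and 1794 without H2.

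**Figure D5:**
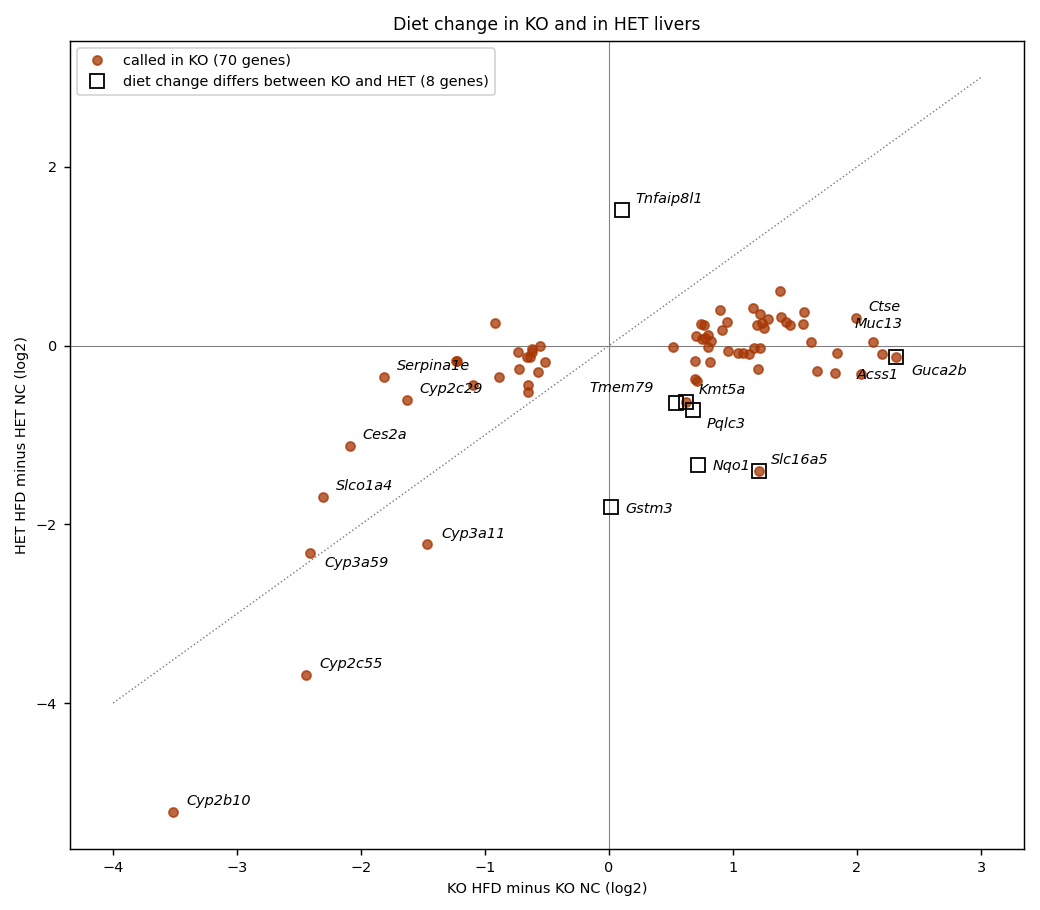
Difference between HFD and NC (log2) in KO livers (horizontal axis) against that in HET livers (vertical axis) for the 70 genes called in KO (filled dots) and the 8 genes whose changes differ between the genotypes (open squares); the dotted line marks equal changes. Cyp2b10, Cyp2c55, Cyp3a59, Cyp3a11, Ces2a and Slco1a4 lie low on both axes, and the 46 KO rises lie between -1.40 (Slc16a5) and 0.61 (Guca2a) on the vertical axis.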

How the data were processed

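Gene expression in liver was read from 14 Affymetrix arrays, 1 mouse each. The labels' protocols give RNeasy for isolation and the WT Plus kit for labelling 400 ng of RNA. Per probe set, the authors deposited log2 values that they made with RMA (background correction, quantile normalisation, median polish), per the submitters' processing notes, which name RMA and limma. Versions and any batch adjustment are not given in the sources used here. Median log2 values of arrays were 2.21 to 2.30. No value marks a probe set as detected, and the number of arrays limits the precision.

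Of 41345 probe sets, 23521 had 1 gene symbol, 1814 several and 16010 none. Only the first were used, and for 1082 genes with several the one with the highest mean over all arrays stood for the gene. No filter on level was set, and 22180 genes were tested. A model with 1 mean per group (WT NC, HET NC, KO NC, HET HFD, KO HFD) was fitted to all arrays with limma 3.58.1 in R 4.3.3 (9 residual and 3.83 prior degrees of freedom) and Benjamini-Hochberg adjustment ran over all 22180 genes of a contrast. Contrasts were HFD minus NC in KO and in HET, and their difference. A p value sets a difference against the spread between mice within groups, pooled over all groups and moderated by limma.

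The arrays compared and the 39 gene lists (806 of 897 entries measured) were chosen with earlier results of these data known. Named genes are Lmna, the 12 largest rises and 12 largest falls that passed the test with ranges apart (predicted genes, clones, small RNAs and receptor segments left out), the members of smallest p in a list (4 at most), and the 6 smallest p in the difference of the contrasts; others are said to be chosen after their values were seen. Lists are described by counts and medians, not tested. Upstream sequences are RefSeq's, of GRCm38.p6; 54 of 70 called genes had a window. The procedure was tested on simulated data. Alternatives were another variance prior, array weights, a filter on dim genes, the mean of probe sets, only the arrays compared, median centring, a second quantile normalisation, a random block for arrays whose names share a letter, an adjusted p under 0.01 and leaving out each array. Counts of list members without I1 or after rescaling were chosen after seeing the data.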

Additional observations from a re-analysis of the deposited data

Results flagged for a closer look

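The diet change differed between KO and HET livers, by limma's test of the difference itself, in 8 genes, given here as the log2 change in KO minus the log2 change in HET with its SE. It was 2.61 ± 0.28 for Slc16a5 (adjusted p = 0.00908), 1.25 ± 0.15 for Kmt5a (0.0171), 1.39 ± 0.18 for Pqlc3 (0.0272), -1.41 ± 0.19 for Tnfaip8l1 (0.0275), 2.45 ± 0.34 for Guca2b (0.0375), 1.18 ± 0.17 for Tmem79 (0.045), 1.82 ± 0.27 for Gstm3 (0.045) and 2.05 ± 0.31 for Nqo1 (0.045). Over the 22 alternatives that gave Slc16a5 a value its difference lay between 2.29 and 2.78, with adjusted p from 0.000901 to 0.0533, and it passed in 20 of them. Kmt5a passed in 17 of 22, Pqlc3 in 15 of 21, Tnfaip8l1 in 14 of 22, Guca2b in 13, Nqo1 in 12 and Gstm3 in 8 of 22, and Tmem79 in 6 of 21. The highest adjusted p was 0.0889 for Kmt5a, 0.0969 for Pqlc3 and Tnfaip8l1, 0.122 for Guca2b, 0.134 for Tmem79 and Gstm3 and 0.152 for Nqo1. None of these 8 differences changed sign. HFD mice were younger than NC mice in KO and older in HET, so these differences cannot be told apart from age.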

How the results depend on the processing

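The number of genes called for HFD against NC in KO livers, 70, changed with several settings. It was 110 with a trended and robust variance prior, 221 with array weights and 106 with a filter on dim genes (10331 tested). It was 44 with a random block for arrays whose names share a letter (correlation 0.051) and 9 at an adjusted p under 0.01. With only the KO arrays in the fit it was 45, and 23 of these were among the 70. Rises that lost their call there include Acss1, Muc13, Cyp21a1, Tmem238l, Fermt1, Serpinb9e, Psat1, Parm1, Guca2a, Npc1l1, Scnn1g, Tgfb2, Lrat, Crat, Kmt5a, Aif1, Cd300ld, Fcgr4 and Srgn. Falls that lost it include Slco1a4, Mx1, Igfbp2, Neb, Rdh16f2, Asl, Slc27a5, Klf15, Acadsb, Aldh1l1, Aldh4a1 and Aldh7a1. The count lay between 13 and 119 when 1 array was left out. Of the 70 genes, 10 passed in all 6 fits without 1 KO array and 11 in none of them. The HET count of 44 became 67 with array weights, 3 with only the HET arrays and 13 at an adjusted p under 0.01, and lay between 13 and 164 when 1 array was left out. The count of differing changes, 8, became 24 with the trended prior, 29 with array weights, 27 with the dim filter, 5 with the letter block and 1 at an adjusted p under 0.01, and lay between 0 and 43 without 1 array. The mean of probe sets and a second quantile normalisation gave 67 and 81 calls in KO. Centring gave 77, with 34 higher and 43 lower where there had been 46 and 24, and moved the median difference of all genes to -0.094. After centring, 1054 genes lay above and 3756 below without overlap, in place of 2045 and 2148; list counts above became 8 for Kupffer markers, 4 for lipid droplet proteins, 5 for fatty acid synthesis and 5 for PPAR alpha targets, and counts below 13 for CAR and PXR genes, 20 for interferon genes and 21 for respiratory chain subunits. Without I1 counts above were 9 (Kupffer), 12 (lipid droplet), 9 (synthesis) and 16 (PPAR alpha), beside 16.2% of all genes. Counts below were 22 for the respiratory chain, 10 for periportal genes and 15 for pericentral genes, beside 17.4% of all genes. The medians of these lists kept their sign under 22 alternatives each. The values that turned sign belong to genes that did not pass: Retn ranged from -0.3602 to 0.0374 without 1 array (above 0 without I1), and the KO difference of Gstm3 was -0.0784 after centring and ranged from -0.093 to 0.0996 without 1 array (below 0 without H1 or C4). The cause of these changes was not tested. No paired analysis was possible because the labels give no numbers that tie a mouse of one group to a mouse of another. With 3 arrays a group, differences of under about 2-fold passed only where the moderated spread, pooled over all groups, was small.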
